A study of Mus musculus with 36 samples.

Results

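A set of 8 genes that break down or recycle nucleosides was followed in mouse liver, out of 53715 gene identifiers in the count table. They are the nucleoside phosphorylases Upp2, Tymp and Pnp, the deaminase Cda, the kinase Adk, and the enzymes of uracil and thymine breakdown Dpyd, Dpys and Upb1. Upp2 was picked because its count differed between the tomato diets, and the other members were added by function with results of these libraries known. RNA was sequenced from the livers of male C57BL/6 mice, 12 libraries per diet and 36 in all, at 10 weeks of age. The control mice ate the purified diet AIN93G, the red group ate AIN93G with 10% red tomato powder, and the tangerine group ate AIN93G with 10% tangerine tomato powder. Feeding began at 4 weeks of age in all 3 groups, and the labels name no altered allele. The labels give each library its own mouse number, taken here as a separate animal, although they count 11 to 12 mice per group. The hour at which livers were taken is not given in the sources used here.

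Uridine, cytidine and thymidine are taken apart in steps. Cytidine deaminase turns cytidine into uridine, a phosphorylase splits the nucleoside into its base and a sugar phosphate, and dihydropyrimidine dehydrogenase, dihydropyrimidinase and beta-ureidopropionase then open and degrade uracil and thymine to beta-amino acids. The liver is the main organ of this breakdown and also sets the uridine level of blood. Uridine phosphorylase 2 is the liver-enriched of the 2 uridine phosphorylases. Many liver enzymes follow the daily clock, in which the transcription factor DBP and the clock activator encoded by Arntl are abundant at opposite times of day, and DBP acts through a DNA motif called the D-box.

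Upp2 and Tymp were the members whose levels differed most between red and tangerine among those above 50 CPM in mean level, so the 250 bases before their RefSeq starts (GRCm38.p6) are shown, 5′ to 3′ on the gene's strand, with the only motif match in capitals. Upp2 has 2 such windows, at chr2:58567084-58567333 (+) and chr2:58754934-58755183 (+), and Tymp has 1, at chr15:89377037-89377286 (−).
Upp2 upstream start: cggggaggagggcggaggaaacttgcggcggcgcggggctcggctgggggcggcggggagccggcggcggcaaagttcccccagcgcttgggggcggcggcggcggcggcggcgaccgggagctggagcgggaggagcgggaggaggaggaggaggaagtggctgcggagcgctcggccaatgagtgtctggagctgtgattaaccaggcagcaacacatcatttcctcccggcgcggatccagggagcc
Upp2 downstream start: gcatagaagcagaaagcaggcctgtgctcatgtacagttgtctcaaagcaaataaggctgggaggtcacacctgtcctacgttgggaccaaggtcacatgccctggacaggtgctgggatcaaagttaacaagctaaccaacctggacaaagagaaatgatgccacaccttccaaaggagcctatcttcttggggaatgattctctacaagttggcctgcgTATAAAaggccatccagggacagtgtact
Tymp start: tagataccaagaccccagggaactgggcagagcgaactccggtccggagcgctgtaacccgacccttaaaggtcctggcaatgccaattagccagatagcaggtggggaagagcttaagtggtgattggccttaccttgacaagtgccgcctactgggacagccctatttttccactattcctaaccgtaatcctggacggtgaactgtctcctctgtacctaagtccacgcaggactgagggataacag
The capitals mark the letters TATAAA, known as the TATA box, at positions −29 to −24 of the downstream Upp2 window, with −1 the base before the start. The 2 Upp2 windows differ in composition. The upstream one is 73.2% G or C with 29 CG pairs, a number reached by 6.78% of 32817 RefSeq windows of the same length, and the downstream one is 49.2% G or C with 2 CG pairs, a number reached by 81.2%. The counts are per gene, so they do not say which Upp2 start was used. Both strands were also searched for the D-box (TTATGTAA or TTACGTAA, in 0.929% of all windows), the E-box CACGTG (6.02%) and the ROR element (TAGGTCA or TGGGTCA, 5.39%), and TATAAA was in 12.4%. None of these letters stood in the upstream Upp2 window, the Tymp window or the windows of Adk, Dpyd, Cda and Pnp, and TGGGTCA stood in the Upb1 window on its minus strand. These matches describe letters in short windows and show no binding.

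Libraries held 21290169 to 33810573 counts, and 14068 genes passed the count filter and were tested. Whether a gene held any count went with its place in the annotation, and the reason was not tested. Among protein-coding genes with all exons inside the span of a gene on the opposite strand, and sharing no exon bases with it, 463 of 468 were listed at 0 in all 36 libraries (98.9%), and for a gene on the same strand the figure was 185 of 186 (99.5%). Among genes with no exon base inside another gene's span, 2774 of 14224 were at 0 (19.5%). Among those with some but not all exon bases inside another span, Tymp and Pnp included, 340 of 6238 were at 0 (5.45%). The rule the authors counted by is not given in the sources used here. The hepatocyte markers Alb, Apoa1, Ttr, Cps1, Cyp2e1 and Tat summed to between 86845 and 124819 CPM (counts scaled to the library size, per 1e6) in every library. In the library of red mouse 186 the 5 adipocyte markers summed to 6.74 CPM (next highest red library 0.266) and the 5 T cell markers to 153 CPM (next 4.06). In that of tangerine mouse 216 the 8 pancreas markers summed to 10.7 CPM (next tangerine library 0.0766) with Cela2a at 0, and in that of tangerine mouse 192 the 4 cholangiocyte markers summed to 109 CPM (next tangerine library 26.5, highest red library 43.6). The part of these markers in the results below was not tested, and values without mice 186 and 216 are given where they change a call. In whole liver, fewer cells of a type and less RNA per cell cannot be told apart.

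Per kilobase of exon, the mean levels over all libraries were ordered Adk (66.5 CPM per kb), Dpys (62.0), Dpyd (56.4), Upp2 (40.5), Tymp (31.1), Cda (4.95) and Pnp (0.285). Adk, Dpys and Dpyd lie close to each other in this order. Their places depend on the length used: with the longest annotated transcript the values were 134 for Adk, 111 for Dpyd, 110 for Upp2 and 94.1 for Dpys, so Dpys then came after Dpyd and Upp2. The kinase and the 2 measured ring-breakdown enzymes were thus abundant transcripts, and Cda was low. Of the exon bases, 42.0% in Tymp and 85.8% in Pnp lie inside other gene spans, against 0.0% in Adk, Dpys, Dpyd, Upp2 and Cda. The length includes these bases whether or not reads on them were counted, so the levels of Tymp and Pnp may be too low. The place of Tymp beside Upp2 is therefore uncertain.

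Upp2 (ENSMUSG00000026839.17, chr2:58567298-58792971, + strand, GRCm38, protein coding), which splits uridine into uracil and a ribose phosphate, was the most variable abundant member. Its level ran from 108 through a median of 328 to 607 CPM in the control libraries. In the red libraries it ran from 66.8 through a median of 136 to 421 CPM. In the tangerine libraries it ran from 158 through a median of 330 to 957 CPM. The red libraries sat low, with 6 of 12 below every control and 1 of 12 above the control median, yet the ranges overlapped. All 12 tangerine libraries were above the red median and 4 of them above every red library, while 6 of 12 were above the control median. In tangerine 3 libraries, those of mice 217, 216 and 215, stood apart at 957, 937 and 789 CPM, above the highest control at 607 CPM, and the tangerine library next to them was at 455 CPM.

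The mean Upp2 level was 334 ± 153 CPM (SD, n = 12) in control, 167 ± 105 CPM (SD, n = 12) in red and 442 ± 288 CPM (SD, n = 12) in tangerine livers. The red mean was 0.501 of the control mean, and the tangerine mean was 2.64 times the red mean. The tangerine minus red difference of 1.40 on the log2 scale (SE 0.33) is the one by which the gene was chosen, so it is a description and has no test. Without the library of tangerine mouse 216 it was 1.25, and without those of red mouse 186 and tangerine mouse 216 it was 1.17. With mouse number as a covariate it was 1.23. Mouse numbers ran from 133 to 204 in red and from 128 to 242 in tangerine. Tangerine mice 215, 216 and 217 thus lie outside the red range, and what the number stands for is not given in the sources used here. Against control, Upp2 differed by −1.0 on the log2 scale in red (SE 0.33, edgeR adjusted p = 0.163) and by 0.40 in tangerine (SE 0.33, edgeR adjusted p = 1.0), and neither passed the test. Both share libraries with the difference that chose the gene. Within a diet the level varied by a coefficient of variation of 45.8% (control), 62.9% (red) and 65.2% (tangerine), against 15.9% or less for Dpyd in each diet.

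**Figure D1:**
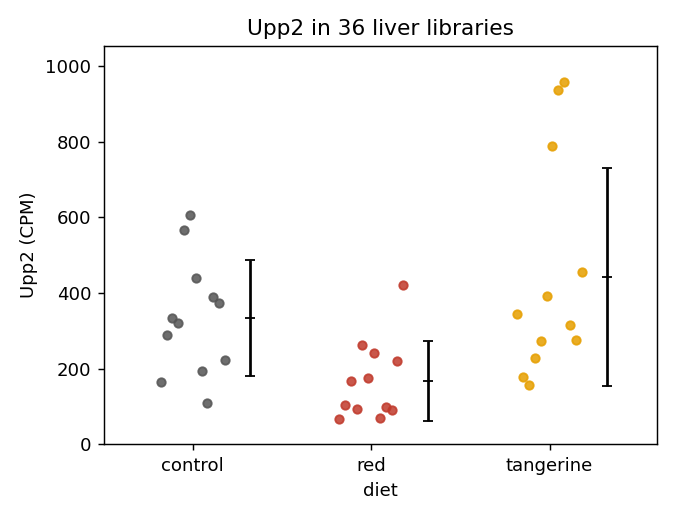
Upp2 level (y axis, CPM) in each of the 36 libraries by diet (x axis), points being libraries and bars the mean ± SD of 12. Red libraries sit low (median 136 CPM) and the tangerine spread comes largely from 3 libraries between 789 and 957 CPM.

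Tymp (ENSMUSG00000022615.7, chr15:89371931-89377039, − strand, protein coding), thymidine phosphorylase, splits thymidine into thymine and a deoxyribose phosphate, and its mean was lowest in the diet where that of Upp2 was highest. It ran from 41.2 through 59.8 to 80.7 CPM in control, from 54.4 through 78.3 to 98.7 CPM in red, and from 35.0 through 50.8 to 66.6 CPM in tangerine livers. No tangerine library was above the red median, and 8 of 12 were below every red library. The means were 61.8 ± 12.9, 78.0 ± 13.3 and 50.4 ± 9.42 CPM (SD, n = 12 each) in that order. Tymp fell by 0.63 on the log2 scale in tangerine against red (SE 0.11, edgeR adjusted p = 0.00394). Tymp joined the set with results of these libraries known, so this p is not an independent test. Its differences from control, 0.34 in red (SE 0.11, edgeR adjusted p = 0.155) and −0.29 in tangerine (SE 0.11, edgeR adjusted p = 0.701), did not pass the test. The tangerine library with the lowest value was that of mouse 216, and without it the difference from red was −0.59 (edgeR adjusted p = 0.00831). Of the exon bases of Tymp, 42.0% lie inside the spans of Sco2, listed at 0, and Ncaph2, so reads from the overlap cannot be given to 1 gene with certainty.

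Adk (ENSMUSG00000039197.10, chr14:21052574-21448569, + strand, protein coding), which phosphorylates adenosine to AMP, is the recycling enzyme of the group. It ran from 540 through 566 to 661 CPM in control, from 499.6 through 523 to 590 CPM in red, and from 553 through 597 to 648 CPM in tangerine livers. The red libraries again sat low, 8 of 12 of them below every control, and 7 of 12 tangerine libraries were above every red one. The means were 573 ± 33.4, 532 ± 27.6 and 595 ± 29.4 CPM (SD, n = 12 each). Adk rose by 0.16 on the log2 scale in tangerine against red (SE 0.039, edgeR adjusted p = 0.0251), a ratio of means of 1.12. The limit given for the p of Tymp holds for Adk too. Adk differed by −0.11 in red against control (SE 0.039, edgeR adjusted p = 0.218) and by 0.06 in tangerine against control (SE 0.039, edgeR adjusted p = 0.988). Without mice 186 and 216 the tangerine minus red difference was again 0.16 with an edgeR adjusted p of 0.0611, and the call was also lost without a low-count filter (0.17, edgeR adjusted p = 0.0913) and with mouse number as a covariate (0.17, edgeR adjusted p = 0.0528).

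Cda (ENSMUSG00000028755.3, chr4:138338424-138367992, − strand, protein coding), which deaminates cytidine and deoxycytidine, was low everywhere. It ran from 1.90 through 3.95 to 8.50 CPM in control, from 3.68 through 6.16 to 11.9 CPM in red and from 2.27 through 4.16 to 6.86 CPM in tangerine livers. In red, 10 of 12 libraries were above the control median, but the ranges overlapped. The differences were 0.61 in red against control (SE 0.23, edgeR adjusted p = 0.239) and −0.55 in tangerine against red (SE 0.23, edgeR adjusted p = 0.234), and neither passed the test.

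The first 2 enzymes of uracil and thymine breakdown varied little. Dpyd (ENSMUSG00000033308.16, chr3:118562129-119432924, + strand, protein coding), the rate-limiting dehydrogenase, averaged 532 ± 84.6 CPM in control, 477 ± 60.1 CPM in red and 494 ± 72.3 CPM in tangerine livers (SD, n = 12 each). Its largest difference was −0.16 on the log2 scale in red against control (SE 0.084, edgeR adjusted p = 0.421). Dpys (ENSMUSG00000022304.13, chr15:39768487-39857470, − strand, protein coding), which opens the reduced ring, averaged 229 ± 25.4, 235 ± 31.8 and 232 ± 38.0 CPM in the same order. Its differences were between −0.02 and 0.04 on the log2 scale, each with an SE of 0.081, and none passed the test.

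Upb1 (ENSMUSG00000033427.14, chr10:75401115-75441679, + strand, protein coding), the beta-ureidopropionase that ends the path, was listed at 0 in 36 of 36 libraries. All its exons lie inside the span of Gucd1 on the opposite strand, which held 196478 counts. In view of the counting pattern above, this 0 says nothing about its RNA. A total of 3 counts, the most that a 0 allows at these depths for counting error alone, would be 0.0887 to 0.141 CPM. Pnp (ENSMUSG00000115338.2, chr14:50931082-50965237, + strand, protein coding), which splits inosine and guanosine, had 1117 counts over all libraries and 1.14 ± 0.399, 1.08 ± 0.247 and 1.17 ± 0.321 CPM (SD, n = 12 each). Its differences lay between −0.09 and 0.12 on the log2 scale and did not pass the test. Of its exon bases, 85.8% lie inside other gene spans, and its first transcript matches that of Pnp2 (listed at 0) at 1054 of 1084 aligned bases (97.2%). The Pnp level is therefore uncertain.

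**Figure D2:**
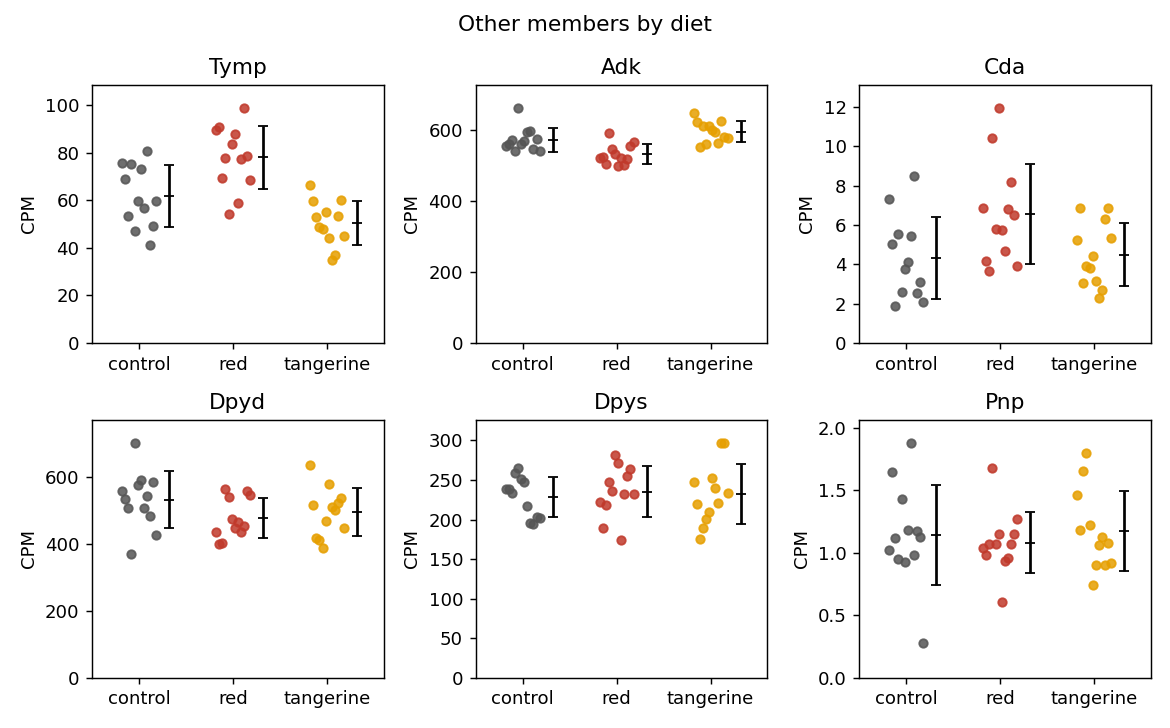
Levels (y axis, CPM, from 0) of Tymp, Adk, Cda, Dpyd, Dpys and Pnp by diet (x axis), points being libraries and bars the mean ± SD of 12. Tymp is high in red and low in tangerine libraries, Adk is low in red libraries, and Dpyd and Dpys differ little between diets.

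Of the 8 members, 7 passed the filter. None was called at an edgeR adjusted p under 0.05 in red against control, where 0.149% of all tested genes were called, and 4 had an unadjusted p under 0.05, beside 13.3% of all genes. DESeq2 also called none there (1.17% of all genes), and limma-voom called 5 (10.5%). None was called in tangerine against control, where 0.0142% of genes were called, and 1 had an unadjusted p under 0.05, beside 5.47%. Neither DESeq2 (0.0426% of all genes called) nor limma-voom (0.0142%) called a member there. In tangerine against red 1.71% of genes were called, and 3 of 7 members were, Upp2 and Adk higher (0.732% of all genes were called higher) and Tymp lower (0.981% called lower). At an unadjusted p under 0.05 there were 4 members, beside 15.1% of all genes. That contrast chose Upp2, so nothing is read from these counts. DESeq2 called 3 of the 7 there (2.78% of all genes) and limma-voom 3 (5.2%). The number was 2 without a low-count filter (0.498% of all genes), 1 with mouse number as a covariate (0.227%), 1 without mice 186 and 216 (0.612%) and 2 without mouse 216 alone (0.631%). The median log2 difference of the 7 was −0.09, 0.03 and 0.05 in the 3 contrasts, against −0.00, −0.01 and −0.00 for all genes.

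**Figure D3:**
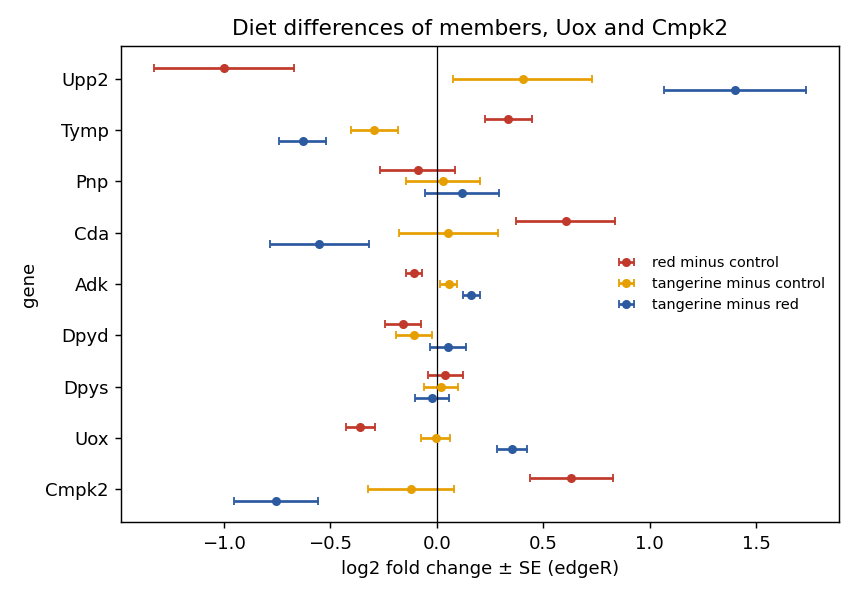
Log2 fold change (x axis) ± SE from edgeR of the 7 tested members, Uox and Cmpk2 (y axis) in the 3 diet contrasts, red minus control, tangerine minus control and tangerine minus red, shown by color. Upp2 has the widest error bars (SE 0.33), and its tangerine minus red value of 1.40 is the difference it was chosen by.

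The wider nucleotide machinery was given by 51 other genes, of which 41 were tested. They too were listed with earlier results of these libraries known, which limits their p-values in the same way. In red against control 1 was called, lower, where 0.0995% of all genes were called lower, and 7 had an unadjusted p under 0.05, beside 13.3% of all genes. In tangerine against control 0 were called by edgeR (0.0142% of all genes) and 2 had an unadjusted p under 0.05 (5.47% of all genes). In tangerine against red 2 were called, 1 in each direction, where 1.71% of all genes were called, and 8 had an unadjusted p under 0.05, where 15.1% of all genes did. Their median differences were −0.03, −0.00 and 0.03, beside −0.00, −0.01 and −0.00 for all genes.

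Uox (ENSMUSG00000028186.14, chr3:146570426-146632305, + strand), urate oxidase, the enzyme by which mice degrade urate, was called in both contrasts that involve red. It ran from 1607 through 1716 to 2086 CPM in control, from 1232 through 1404 to 1573 CPM in red and from 1160 through 1786 to 2201 CPM in tangerine livers. All 12 red libraries were below every control library, so these 2 ranges did not overlap, and 11 of 12 tangerine libraries were above every red one. The exception, the library of tangerine mouse 226, was the lowest of all 36. How many of all tested genes kept red and control libraries apart in this way was not counted. Uox fell by 0.36 on the log2 scale in red against control (SE 0.069, edgeR adjusted p = 0.0156) and was 0.35 higher in tangerine than in red (SE 0.069, edgeR adjusted p = 0.00785). In tangerine against control the difference was −0.00 (SE 0.069, edgeR adjusted p = 1.0). Of its exon bases, 53.9% lie inside the span of another gene on the opposite strand.

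**Figure D4:**
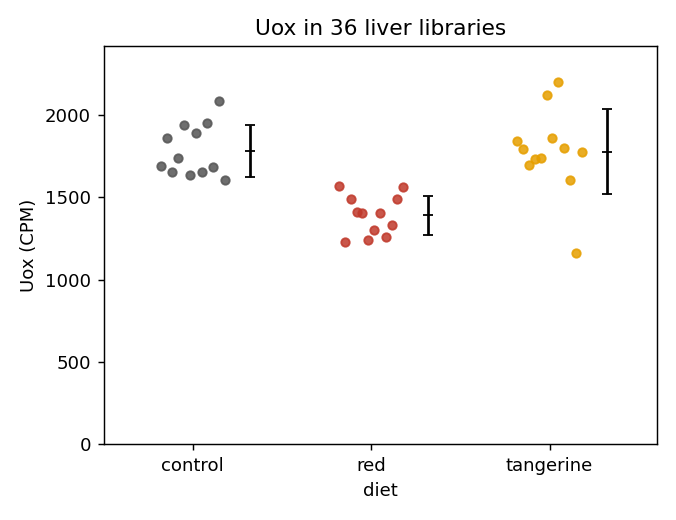
Uox level (y axis, CPM, from 0) in each of the 36 libraries by diet (x axis), points being libraries and bars the mean ± SD of 12. The red libraries (1232 to 1573 CPM) lie below every control library (1607 to 2086 CPM).

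Cmpk2 (ENSMUSG00000020638.8), a mitochondrial kinase of UMP and CMP known as an interferon-induced gene, was low and ran from 2.32 through 3.78 to 8.79 CPM in red and from 0.880 through 2.51 to 3.72 CPM in tangerine livers. No tangerine library was above the red median. It fell by 0.75 on the log2 scale in tangerine against red (SE 0.20, edgeR adjusted p = 0.0367), but without mice 186 and 216 the edgeR adjusted p was 0.0753, and without mouse 216 alone 0.0733. The call was also lost with mouse number as a covariate (−0.65, edgeR adjusted p = 0.116), without a low-count filter (edgeR adjusted p = 0.0724) and with only the 2 diets in the fit (edgeR adjusted p = 0.0524). It was 0.63 in red against control (SE 0.20, edgeR adjusted p = 0.133).

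Apart from Uox, the 2 most abundant genes of each other step did not pass the test in any contrast. Downstream of ring breakdown, 0 of 3 genes were called. Of these the transaminases Abat and Agxt2 averaged 351 ± 47.6 and 137 ± 12.5 CPM in control livers, 382 ± 42.0 and 133 ± 12.4 CPM in red, and 374 ± 63.9 and 138 ± 7.71 CPM in tangerine. In pyrimidine salvage, where Cmpk2 was the 1 gene called of 11 tested, the kinases Cmpk1 and Uck1 averaged 65.5 ± 17.2 and 23.9 ± 4.89 CPM in control, 55.9 ± 13.9 and 28.4 ± 5.06 CPM in red, and 64.6 ± 14.3 and 23.5 ± 4.25 CPM in tangerine. In new pyrimidine synthesis 0 of 5 genes were called. Umps, which makes UMP, averaged 34.9 ± 4.77, 31.0 ± 2.78 and 35.0 ± 4.0 CPM, and Cad, which starts the path, 14.6 ± 3.87, 15 ± 4.56 and 14.6 ± 4.01 CPM.

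The same shares of all genes stand beside the counts that follow, which cover the 3 contrasts. Of the nucleotidases 0 of 8 were called. Samhd1, which degrades deoxynucleotides, averaged 19.5 ± 3.19, 20.7 ± 2.91 and 18.9 ± 2.72 CPM, and the pyrimidine nucleotidase Nt5c3 18.6 ± 3.57, 17.1 ± 2.75 and 19.6 ± 2.93 CPM. In purine breakdown and salvage Uox was the 1 gene called of 9 tested, and Xdh, which makes urate, averaged 115 ± 18.5, 110.1 ± 13.3 and 121 ± 14.3 CPM. Of 5 tested transporters 0 were called. Slc29a1, a nucleoside carrier of the cell membrane, averaged 217 ± 29.9, 192 ± 28.9 and 206 ± 28.6 CPM, and the lysosomal transporter Slc29a3 5.43 ± 0.633, 6.04 ± 0.781 and 5.75 ± 0.928 CPM. Tk1, Pnp2, Urah and Aprt were listed at 0 and have all their exons inside other gene spans.

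The clock state of each library was measured as the log2 CPM of Dbp minus that of Arntl. It averaged 2.94 ± 2.70 in control, −0.02 ± 2.07 in red and 3.84 ± 1.98 in tangerine libraries (SD, n = 12 each), so its means were ordered as those of Upp2. Its medians were 3.87 in control, −0.23 in red and 3.55 in tangerine libraries, beside Upp2 medians of 328, 136 and 330 CPM. By median, both were low in red, and the clock measure was not higher in tangerine than in control. Dbp averaged 61.2 ± 32.4, 22.6 ± 19.8 and 80.5 ± 43.5 CPM, and Arntl 7.83 ± 6.87, 17.1 ± 7.33 and 6.24 ± 4.01 CPM in control, red and tangerine livers. The 3 highest values of the measure, 6.89, 6.50 and 6.34, belonged to tangerine mice 216, 215 and 217, which were also the 3 libraries highest in Upp2.

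Within each diet Upp2 tended to be higher in libraries with a higher clock measure. The difference between diet means does not enter these relations. The red and tangerine libraries are however those by which Upp2 was chosen, so their p-values are not taken as independent of that choice. Pearson's r was 0.66 in control (permutation p = 0.0185, adjusted p = 0.0779 over 21 relations), 0.83 in red (permutation p = 0.00118, adjusted p = 0.00826) and 0.87 in tangerine (permutation p = 0.00043, adjusted p = 0.00826), each with n = 12. Spearman's rho was 0.56 (permutation p = 0.0628), 0.80 (p = 0.00251) and 0.76 (p = 0.00562). Without the 2 libraries farthest from the diet's median clock measure, r was 0.55, 0.83 and 0.78, with permutation adjusted p = 0.311, 0.0340 and 0.0502. By Pearson's r the relation therefore passed the adjusted threshold in red with and without the farthest libraries, and in tangerine only with them. By rho it passed in red and tangerine with all libraries (permutation adjusted p = 0.0264 and 0.0393). Without the farthest libraries rho was 0.27 in control, 0.77 in red and 0.62 in tangerine. None of these passed (permutation adjusted p = 0.785, 0.0877 and 0.281). In control neither r nor rho passed. In tangerine livers the 2 farthest libraries were those of mice 216 and 215. That of mouse 217 stayed in, with Upp2 at 957 CPM and a clock measure of 6.34. The tangerine relation without mice 215, 216 and 217 together was not tested. Its permutation p-values treat these libraries as independent of each other, and this was not tested either.

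Tymp ran the opposite way in tangerine livers, with r = −0.82 (permutation p = 0.00115, adjusted p = 0.00826, n = 12) and rho = −0.71 (permutation p = 0.0141, adjusted p = 0.0740). Without the 2 farthest libraries r was −0.74 (permutation adjusted p = 0.0587). The library of mouse 217 stayed in here too, and the relation of Tymp without mice 215, 216 and 217 together was not tested. In control and red livers its r was −0.43 and −0.45, and neither passed the test. Cda ran the opposite way in control livers, with r = −0.73 (permutation p = 0.00483, adjusted p = 0.0254, n = 12) and rho = −0.83 (permutation p = 0.00137, adjusted p = 0.0264). Without the 2 farthest libraries r was −0.83 (permutation adjusted p = 0.0212) and rho −0.81 (permutation adjusted p = 0.0877). In red and tangerine livers its r of −0.34 and −0.58 did not pass. For Adk, Dpyd, Dpys and Pnp r lay between −0.52 and 0.32 in the 3 diets, and none of the 12 passed. Between Upp2 and the other members, none of 18 relations within diets passed the adjusted threshold, the strongest being Tymp in tangerine livers (r = −0.74, permutation p = 0.00605, adjusted p = 0.109, n = 12).

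**Figure D5:**
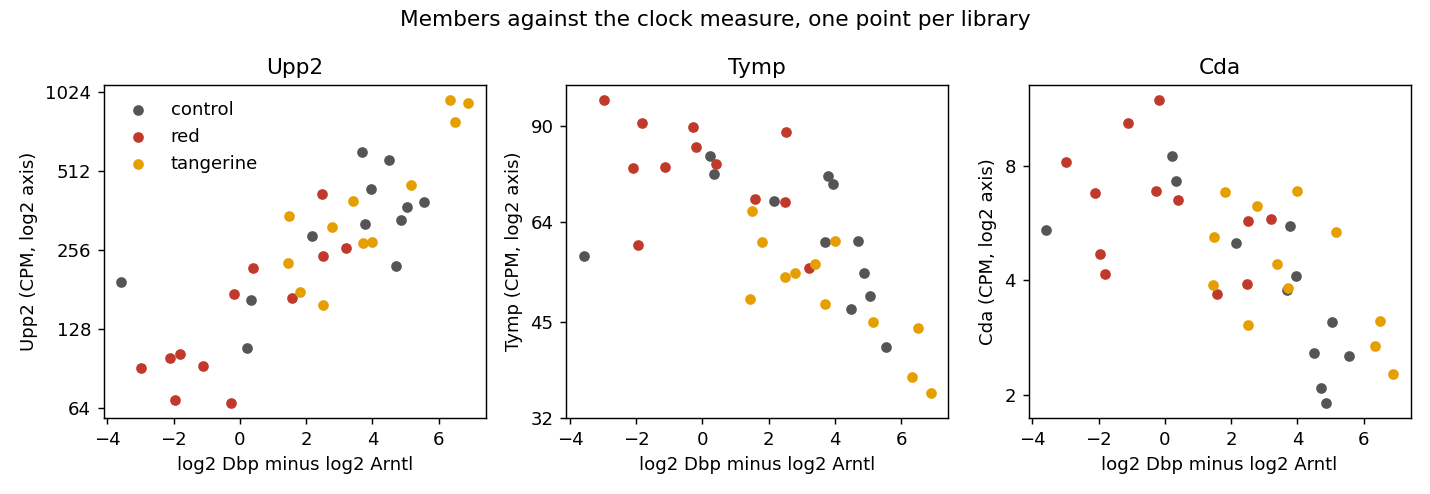
Upp2, Tymp and Cda level (y axes, CPM on a log2 axis) against the clock measure of the same library (x axis, log2 Dbp minus log2 Arntl), 1 point per library colored by diet. Upp2 is high and Tymp low in the 3 tangerine libraries at the right, where the clock measure is between 6.34 and 6.89.

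With the clock measure as a covariate, the tangerine minus red difference of Upp2 was 0.35 (SE 0.25) on the log2 scale, and the red minus control difference was −0.33 (SE 0.23). The same fit gave −0.37 for Tymp (SE 0.12, edgeR adjusted p = 0.263) and 0.18 for Adk (SE 0.048, edgeR adjusted p = 0.226). For Cda the tangerine minus red difference changed from −0.55 to 0.03 (SE 0.24), which did not pass the test in either fit. Whether the change from the fit without the covariate differs between these genes was not tested. No gene of 14068 was called in tangerine against red in this fit, where 1619 had an unadjusted p under 0.05. Uox was −0.31 in red against control (SE 0.077, edgeR adjusted p = 0.202) and 0.29 in tangerine against red (SE 0.083, edgeR adjusted p = 0.240). In red against control 0.0284% of all genes were called in this fit, and 0.0213% with the first component of the clock list in place of the measure. Because the clock measure itself differed between diets, its share and that of the diet cannot be told apart.

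Across all 36 libraries, after subtracting each diet's mean, the log2 levels of 10968 genes were set beside that of Upp2. The 5 most alike were Por (r = 0.90), the reductase that feeds electrons to cytochrome P450 enzymes, Klhl21 (0.89), an adaptor of a ubiquitin ligase, the transcription factor Klf13 (0.89), Gne (0.89), the first enzyme of sialic acid synthesis, and the scaffold protein gene Homer2 (0.88). By Spearman's rho the first 5 were Por, Tef, Homer2, Etnk2 and Stbd1, so 2 of 5 were shared, and Gne, Klhl21 and Klf13 came at ranks 6, 7 and 8. The most opposite by Pearson's r were the beta-tubulin genes Tubb2a (−0.88) and Tubb2b (−0.86), close copies that may share reads. These values are descriptions over n = 36 libraries that share the clock difference: among the 11 clock genes compared r was 0.86 for Per1 and Tef, 0.76 for Hlf, 0.75 for Nr1d2, 0.70 for Dbp, 0.50 for Nr1d1, 0.39 for Per2, −0.33 for Clock, −0.39 for Nfil3, −0.50 for Cry1 and −0.78 for Arntl. Among members r was 0.41 for Dpys, 0.36 for Dpyd, 0.10 for Adk, −0.47 for Cda and −0.53 for Tymp.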

How the data were processed

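Liver RNA of 36 mice was sequenced from NEXTflex directional libraries, per the labels' protocols. The deposited values are raw read counts per gene, made by the authors. FastQC, Trimmomatic, edgeR and GRCm38.p6 are named in the submitters' processing notes, while aligner, counter, annotation and strand setting are not given in the sources used here. Of 53715 identifiers, 53620 found a symbol in GENCODE release M21.

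Counts were filtered with edgeR 4.0.16 filterByExpr (minimum count 10, total 15), scaled by TMM and fitted over all 36 libraries without covariates (quasi-likelihood F test, robust), with Benjamini-Hochberg adjustment over 14068 genes and a threshold of 0.05. The SE is the size of the log2 fold change divided by the square root of F. CPM uses TMM library sizes, and log2 CPM a prior count of 2. The total counts, from 21290169 to 33810573, make counting error small for members other than Pnp and Cda. Alternatives used DESeq2 1.42.0, limma 3.58.1, other filters, covariates and left-out libraries. Correlations used 100000 permutations, two-sided. They were planned over 8 members and run over 7, since Upb1 was at 0. The fitting was tested on simulated counts.

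The members and lists were chosen with earlier results of these data known. Named beside the members were other nucleotide genes called in any contrast, otherwise the 2 with the highest mean CPM of each list, the 5 genes most and 2 least like Upp2, and Dbp and Arntl. Some genes singled out (Uox by mouse, clock values per mouse, the genes leading by Spearman's rho) were chosen after their values were seen. Promoter windows come from RefSeq, which held 7 of the 8 members.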

Additional observations from a re-analysis of the deposited data

How the results depend on the processing

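Of the alternatives for log2 fold changes of members, Uox and Cmpk2, 282 kept the direction and the side of the threshold, 23 no longer passed, 5 newly passed and 11 changed direction, none of them past the threshold. These 11 were, in tangerine against control, Uox (main value −0.0045) at 0.0005 with DESeq2 size factors, 0.0046 without a low-count filter, 0.0003 with the stricter filter on mean level, 0.0005 with DESeq2, 0.0028 with limma-voom and 0.0023 with mouse number, Dpys at −0.022 and Pnp at −0.051 with limma-voom, and, in tangerine against red, Cda at 0.033 with the clock measure and 0.11 with the clock list component and Dpyd at −0.0007 with that component. Members called in tangerine against red, 3 in the main result, were 1 with mouse number as a covariate, 1 without red mouse 186 and tangerine mouse 216, and 0 with the clock measure or with the first component of the clock list as a covariate. Members called in red against control were 5 with limma-voom. Of the other nucleotide genes in tangerine against red, 2 in the main result, 4 were called with limma-voom, 1 without a low-count filter, 1 with mouse number, 1 without both mice, 1 without tangerine mouse 216 (chosen after seeing the data) and 0 with either clock covariate. In red against control, 1 in the main result, 4 were called with limma-voom and 0 with either clock covariate. Over all genes in tangerine against red, 241 were called in the main result, 732 with limma-voom, 391 with DESeq2, 136 without a filter, 32 with mouse number, 86 without both mice, 89 without tangerine mouse 216 and 0 with either clock covariate. In red against control the 21 became 1482 with limma-voom, 164 with DESeq2, 59 with the stricter filter on mean level, 54 without red mouse 186, 53 without both mice, 32 without tangerine mouse 216, 4 with the clock measure and 3 with the clock list component. The causes were not tested. Without the 2 farthest libraries, the tangerine Pearson correlations with the clock measure were 0.78 for Upp2 and −0.74 for Tymp and no longer passed. By Spearman's rho no relation passed without them. With the clock list component Upp2 in control had r = 0.73 and passed (permutation adjusted p = 0.0277). No paired analysis was possible because mouse numbers do not repeat between diets. Depth limits Pnp most, with 7 to 53 counts per library.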
